A study of Canis lupus familiaris with 31 samples.

Results

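Integrins are cell surface receptors made of 1 α and 1 β chain, and the leukocyte integrins are those by which white blood cells stop on the vessel wall, leave the circulation and bind pathogens and matrix. The 10 genes described here encode the β2 chain (ITGB2) with its partners ITGAL, ITGAM and ITGAX, the α4 chain (ITGA4) with its partners ITGB1 and ITGB7, the αE chain (ITGAE), which also pairs with ITGB7, and the α5 and α6 chains (ITGA5 and ITGA6), which in blood cells pair with ITGB1. They were found by gene symbol, and each of the 10 symbols had exactly 1 of the 32704 rows in the table of counts. Whole-blood RNA of 31 privately owned adult Miniature Schnauzers was sequenced with 1 library per dog. The 13 cases had spontaneous HTG, a raised concentration of triglycerides in the blood after fasting, and the 18 controls had fasting triglycerides within the reference interval. No dog carried an engineered allele or received an agent for the study, and blood of both groups was drawn after food had been withheld. The cases were 8 males and 5 females and the controls 10 males and 8 females.

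A chain reaches the cell surface only as part of a pair, and most leukocytes carry several pairs at once. Integrins on resting leukocytes are held in a bent, inactive form. Talin (TLN1) and kindlin-3 (FERMT3) bind the β chain's tail and switch them on after a signal through RAP1, so the amount of transcript is one of several layers that set adhesion. In whole blood, fewer cells of a type and less RNA per cell cannot be told apart.

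All 10 genes were expressed in every dog and passed the filter on low counts. Levels are CPM, counts scaled to a common library size after TMM normalization, and differences are log2 fold changes of cases over controls with their standard errors (SE), tested with the quasi-likelihood test of edgeR and adjusted over all 13918 genes tested. The total was between 14524659 and 41533599 counts per dog, and the lowest count of a dog was 33 for ITGAE and at least 1240 for the other 9 genes. Since the files give no transcript lengths, levels are compared between dogs and not between genes. The dogs were split by the counts of 366 rows named after small non-coding RNAs, at the widest gap leaving at least 5 dogs a side. On the high side 5 cases and 5 controls averaged 1.66 log2 CPM or more. On the low side 8 cases and 13 controls averaged 1.40 or less. The averages ran from 0.68 to 2.37, and values on this high and low side are given where they differ most. One dog, control_03, had the smallest library and the lowest TMM factor of all dogs (0.53). It stood at an extreme of the controls for 6 of the 10 genes, highest for ITGB2, ITGAX, ITGB1 and ITGA5 and lowest for ITGA4 and ITGAE.

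No leukocyte integrin gene passed the threshold of an adjusted P of 0.05, a threshold that 5 of the 13918 genes tested passed (0.0359%). At an unadjusted P under 0.05 there were 3 of the 10, with ITGB1 and ITGA6 higher and ITGAE lower in the cases, against 1365 of all genes tested (9.81%). DESeq2 called 0 of the 10 and 84 of all genes (0.604%), and limma-voom called 0 of the 10 and 0 of all genes (0%). At an unadjusted P under 0.05 there were again 3 of the 10 with each tool, against 1465 of all genes with DESeq2 and 1556 with limma-voom. The median log2 fold change was 0.01 over the 10 genes and −0.02 over all genes tested. All dogs' values are shown gene by gene in the plot of CPM.

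**Figure D1:**
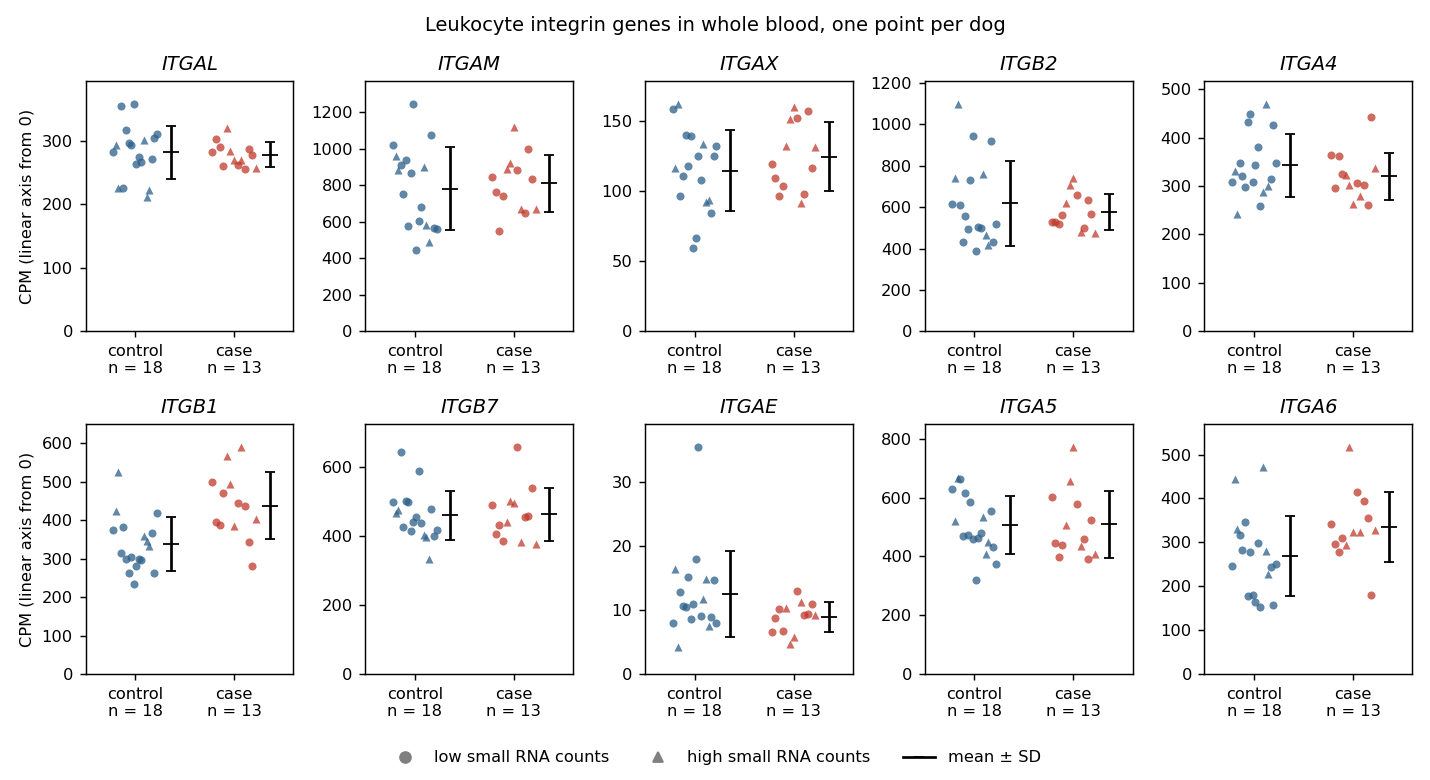
CPM (linear axis from 0) of each leukocyte integrin gene in the 18 controls (blue) and 13 cases (red), 1 point per dog, triangles for dogs with high and circles for dogs with low small RNA counts, and bars for the mean ± SD. ITGB1 lies between 281 and 590 CPM in the cases and between 234 and 525 CPM in the controls, and the groups overlap for every gene.

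The β2 integrins are particular to leukocytes, and the loss of their common chain causes leukocyte adhesion deficiency, in dogs as in people. The common chain, ITGB2 (ENSCAFG00000011039), was at 477 to 739 CPM in the cases (median 563) and at 389 to 1100 CPM in the controls (median 538). The means were 578 ± 86.0 CPM (SD, n = 13) and 618 ± 206 CPM (SD, n = 18), and the log2 fold change was −0.10 (SE 0.13, 95% confidence interval −0.37 to 0.18, adjusted P = 0.861 in edgeR). The controls reached past the cases on both sides, with 5 controls above the highest case and 5 below the lowest. The highest control was control_03, and without it the log2 fold change was −0.03.

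ITGAL (ENSCAFG00000016603), the α chain of LFA-1, which binds the ICAM proteins and is carried by lymphocytes and other leukocytes, differed least between dogs. It ranged from 256 to 320 CPM in the cases (median 277) and from 211 to 358 CPM in the controls (median 287). Mean levels were 278 ± 19.1 CPM (SD, n = 13) and 281 ± 42.1 CPM (SD, n = 18), a log2 fold change of −0.02 (SE 0.07, interval −0.16 to 0.12, adjusted P = 0.956 in edgeR). The cases lay inside the range of the controls. Of all genes tested, 90.3% had a larger SD between dogs than ITGAL once the group and split means were taken out.

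ITGAM (ENSCAFG00000016881), the α chain of Mac-1, serves neutrophils and monocytes as a receptor for complement and fibrinogen. It ranged from 551 to 1117 CPM in the cases (median 834) and from 442 to 1245 CPM in the controls (median 809). The means of 810 ± 157 CPM (SD, n = 13) and 780 ± 228 CPM (SD, n = 18) gave a log2 fold change of 0.05 (SE 0.13, interval −0.22 to 0.33, adjusted P = 0.932 in edgeR). Here too the controls spread wider than the cases, with 1 control above and 2 controls below all cases. Leaving out 1 dog gave log2 fold changes from 0.0055 (without case_07) to 0.11 (without control_09). ITGAX (ENSCAFG00000016883), the CD11c chain of monocytes and dendritic cells, lies next to ITGAM in the RefSeq annotation of the dog. Its range was 91.7 to 160 CPM in the cases and 59.1 to 162 CPM in the controls, with medians of 120 and 117. Its means were 124 ± 24.5 CPM (SD, n = 13) and 114 ± 28.7 CPM (SD, n = 18), and their log2 fold change was 0.12 (SE 0.12, interval −0.13 to 0.37, adjusted P = 0.793 in edgeR).

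ITGB1 (ENSCAFG00000003821), the β1 chain, had the smallest P-value of the 10 genes and ranked 101 among all genes tested. It is the most widely shared of the β chains and forms receptors for fibronectin, laminin, collagen and VCAM1 on leukocytes, platelets and most other cells. Levels ranged from 281 to 590 CPM in the cases (median 437) and from 234 to 525 CPM in the controls (median 325). Of the 13 cases, 12 lay above the control median and 2 above the highest control, while 3 controls lay below the lowest case. Cases averaged 438 ± 86.8 CPM (SD, n = 13) and controls 338 ± 71.1 CPM (SD, n = 18). This is a 1.29-fold difference and a log2 fold change of 0.37 (SE 0.11, interval 0.16 to 0.59, adjusted P = 0.166 in edgeR).

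Whether ITGB1 passed the threshold depended on the fit. With DESeq2 in place of edgeR its adjusted P was 0.0670. With the side of that split added to the DESeq2 model it was 0.0477 at a log2 fold change of 0.34, in a fit that called 106 genes (0.778% of those given an adjusted P) and no other leukocyte integrin gene; the same covariate in edgeR gave 0.134. Leaving out control_03, the highest control, gave a log2 fold change of 0.42 and an adjusted P of 0.0333 in edgeR, when 154 genes passed in all, and leaving out case_01 as well gave 0.0741. Over all alternatives the adjusted P of ITGB1 ranged from 0.0333 to 1.00. The study's own list of genes selected on these same dogs holds ITGB1, so its direction is not independent evidence.

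The α4 chain and its other partner showed smaller differences. ITGA4 (ENSCAFG00000014175), which carries lymphocytes, monocytes and eosinophils to VCAM1 and MAdCAM-1, ranged from 260 to 442 CPM in the cases and from 242 to 470 CPM in the controls, with medians of 305 and 326. Its means were 320 ± 49.2 CPM (SD, n = 13) and 342 ± 65.1 CPM (SD, n = 18), a log2 fold change of −0.10 (SE 0.09, interval −0.28 to 0.09, adjusted P = 0.773 in edgeR). ITGB7 (ENSCAFG00000007065), the β chain of gut-homing lymphocytes, ranged from 376 to 658 CPM in the cases and from 335 to 642 CPM in the controls, with medians of 455 and 449. Its means were nearly the same, 463 ± 77.2 CPM (SD, n = 13) and 460 ± 71.6 CPM (SD, n = 18), and the log2 fold change was 0.01 (SE 0.08, interval −0.16 to 0.18, adjusted P = 0.984 in edgeR).

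ITGAE (ENSCAFG00000019367), the CD103 chain by which T cells of epithelia bind E-cadherin, was the gene with the lowest counts, from 33 to 1270 per dog. It ranged from 4.74 to 13.0 CPM in the cases (median 9.33) and from 4.32 to 35.5 CPM in the controls (median 10.8). The cases were the more uniform group, with 10 of 13 below the control median and 6 controls above the highest case. The mean was 8.95 ± 2.37 CPM (SD, n = 13) against 12.6 ± 6.74 CPM (SD, n = 18), a log2 fold change of −0.49 (SE 0.20, interval −0.90 to −0.08, unadjusted P = 0.0202 and adjusted P = 0.386 in edgeR). The highest value belonged to control_11, and the log2 fold change was −0.33 without that dog. In the RefSeq annotation ITGAE overlaps HASPIN and a small nuclear RNA gene, and the sources used here do not say whether the counting used strand, so reads of these genes may not be separable. The same limit holds for ITGA4, which overlaps the protein-coding gene CERKL, for ITGB1 and ITGAM, which each overlap a pseudogene, and for ITGA6, which overlaps long non-coding RNA genes.

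ITGA5 (ENSCAFG00000006491) encodes the α chain of the fibronectin receptor. It ranged from 390 to 771 CPM in the cases and from 319 to 665 CPM in the controls, with medians of 458 and 477. The means were 509 ± 115 CPM (SD, n = 13) and 506 ± 98.6 CPM (SD, n = 18), a log2 fold change of 0.01 (SE 0.11, interval −0.21 to 0.23, adjusted P = 0.987 in edgeR). ITGA6 (ENSCAFG00000013006), the laminin-binding chain, ranged from 181 to 517 CPM in the cases and from 152 to 473 CPM in the controls, with medians of 325 and 265. As with ITGB1, 12 of 13 cases lay above the control median, and the lowest case for both genes was case_12. The mean was 335 ± 78.8 CPM (SD, n = 13) against 270 ± 91.4 CPM (SD, n = 18), a log2 fold change of 0.31 (SE 0.15, interval 0.01 to 0.62, unadjusted P = 0.0450 and adjusted P = 0.497 in edgeR).

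**Figure D2:**
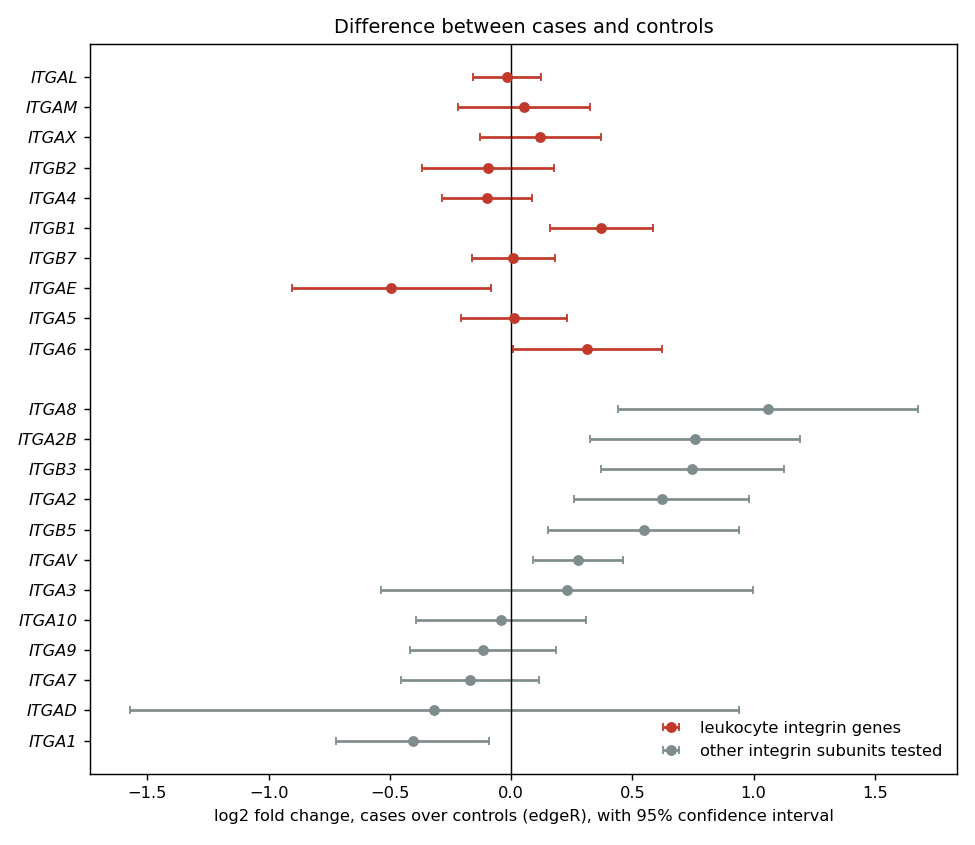
Log2 fold change of cases over controls (x axis) with its 95% confidence interval for the 10 leukocyte integrin genes (red) and the 12 other integrin subunits tested (grey). Among the red genes the intervals of ITGB1, ITGA6 and ITGAE leave out 0, and none of the 22 genes passed an adjusted P of 0.05.

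For ITGB1 the split by small RNA counts gave a difference of much the same size as the groups did. Dogs on the high side had a log2 difference of 0.30 over dogs on the low side in ITGB1 (adjusted P = 0.0568 in edgeR with group in the fit) and of 0.38 in ITGA6 (adjusted P = 0.111), while 1053 genes (7.57% of those tested) passed the threshold and 0 of the 10 did. Within the high side the case effect of ITGB1 was 0.29 on the log2 scale and within the low side 0.37. The case effect of ITGA6 was 0.02 among the former dogs and 0.43 among the latter. The difference between the sides' effects was −0.41 (SE 0.29, unadjusted P = 0.173 and adjusted P = 0.970 in edgeR) for ITGA6. Of the 10 genes ITGAL had the smallest P in that test, with a case effect of 0.16 (SE 0.13) among the dogs with high and −0.08 (SE 0.08) among those with low small RNA counts, a difference of 0.24 (SE 0.14, unadjusted P = 0.0921 and adjusted P = 0.970 in edgeR). No gene was called in that test of the difference, in which 605 genes and 0 of the 10 had an unadjusted P under 0.05.

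Platelets also carry ITGB1 and ITGA6, in their receptors for collagen and laminin, and whole blood holds platelet RNA. A platelet score, the mean log2 CPM of 12 platelet genes each centred over the dogs, averaged 0.32 ± 0.45 over the cases (SD, n = 13) and −0.23 ± 0.55 over the controls (SD, n = 18). Of the platelet list, 12 of 12 genes tested were higher in the cases, 9 at an unadjusted P under 0.05 and 0 past the threshold, with a median log2 fold change of 0.56. The smallest P were those of GP6 (0.61, SE 0.19), TREML1 (0.61, SE 0.19) and RGS18 (0.45, SE 0.15). The summed level of the list was 1285 to 5025 CPM in the cases and 908 to 5383 CPM in the controls, and CMTM5 was at 0 in every dog.

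Across the 31 dogs, with the group and split means taken out, ITGB1 followed the platelet score with Pearson's r = 0.81 and Spearman's rho = 0.81 (each P = 1e-05 in a two-sided permutation test with 100000 resamples, the smallest it can give, and adjusted P = 1e-04 over 10 relations). Without control_17 and control_09, the dogs farthest from the median score, r was 0.78. With no means taken out, r was 0.95 within the cases and 0.81 within the controls. Likewise it was 0.91 on the high and 0.85 on the low side of the split. These r within a group still hold the split difference, and those within a side the group difference. ITGA6 followed the score with r = 0.58 (permutation P = 0.00078, adjusted P = 0.0039) and rho = 0.52 (adjusted P = 0.0138). For ITGA6, r was 0.50 without those dogs. With no means taken out, it was 0.54 within the cases, 0.73 within the controls, 0.28 on the high and 0.77 on the low side. The other 8 genes had r between −0.27 and 0.23, with adjusted P of 0.494 or more.

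With the platelet score as a covariate in edgeR, the log2 fold change of cases over controls was 0.10 (SE 0.07, adjusted P = 0.884) for ITGB1 and 0.02 (SE 0.13) for ITGA6, and 0 of the 10 genes had an unadjusted P under 0.05. ITGAE was at −0.42 (SE 0.23, unadjusted P = 0.0793), not far from its −0.49 without the score. In that fit 0 genes of all tested were called and 853 had an unadjusted P under 0.05.

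**Figure D3:**
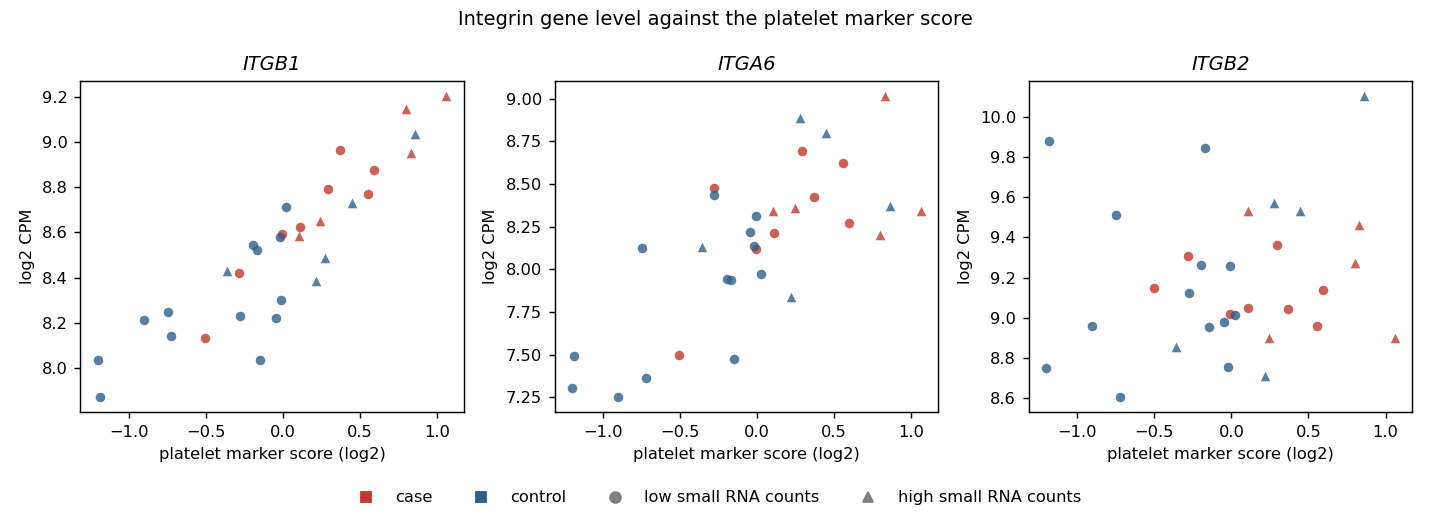
Log2 CPM of ITGB1, ITGA6 and ITGB2 (y axes) against the platelet marker score in log2 units (x axis), 1 point per dog, red for cases and blue for controls, triangles for high and circles for low small RNA counts. ITGB1 climbs with the score in both groups (r = 0.81 with group and split means taken out), ITGA6 does so less closely (0.58), and ITGB2 does not (0.10).

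Markers of other blood cells were laid beside the 10 genes in the same way, as a description over 31 dogs whose libraries and depths both measures share. ITGAM and ITGB2 ran against the T cell score, with r of −0.85 and −0.75, and with the neutrophil score, with r of 0.58 and 0.49. Their r with the erythroid score was 0.52 and 0.45, and with the B cell score −0.41 and −0.44. ITGA4 showed the opposite sign for neutrophils, with r of −0.56, and for erythroid genes, with −0.46. Its r was 0.44 with the cytotoxic lymphocyte score and 0.40 with the T cell score. ITGA5 had r of 0.65 with the erythroid score and −0.56 with the T cell score. ITGAL, the gene with the least spread, had no r beyond 0.37 with any of the 9 lists.

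**Figure D4:**
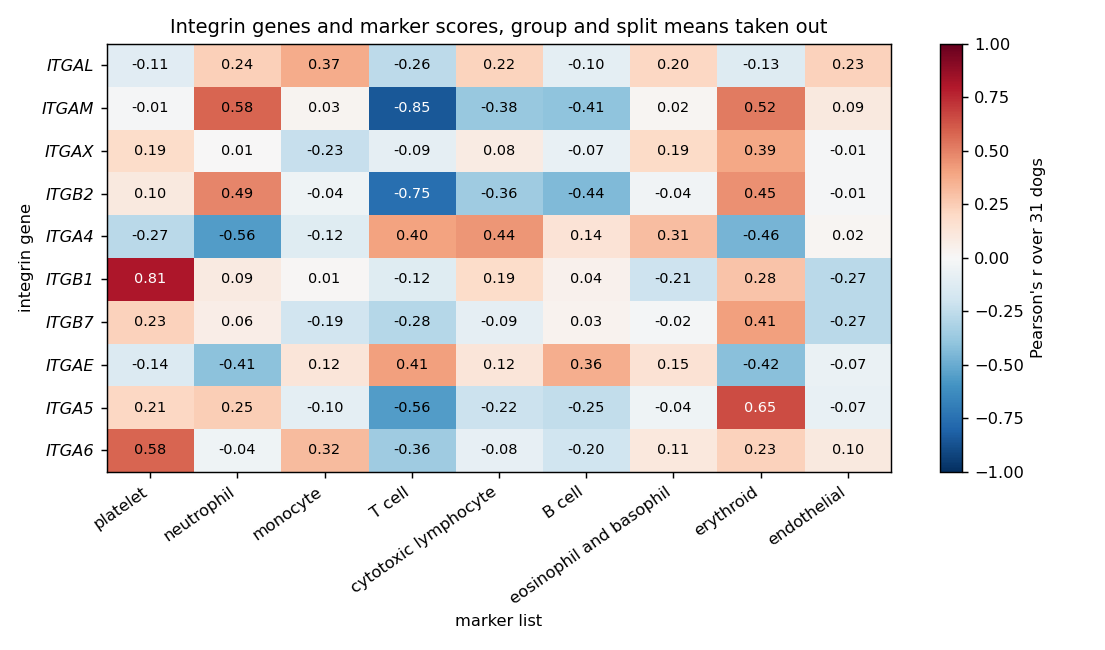
Pearson's r over 31 dogs (colour and printed value) between the log2 CPM of each leukocyte integrin gene (rows) and the score of each marker list (columns), with group and split means taken out. ITGB1 stands out in the platelet column with 0.81 and ITGAM in the T cell column with −0.85.

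None of these marker lists held a gene past the threshold. In the T cell list 10 of 11 genes tested were lower in the cases, 2 of them at an unadjusted P under 0.05 (IL7R at a log2 fold change of −0.41 and CD28 at −0.28). In the neutrophil list 8 of 10 were higher, 3 of them at an unadjusted P under 0.05. Its median log2 fold change was 0.25, or 0.68 with the platelet score in the fit. The list was led by CAMP at 1.61 and MMP9 at 1.05, which are granule proteins. The 2 lower genes, CSF3R and CXCR2, were each at −0.02. All 7 erythroid genes were higher, 0 of them at an unadjusted P under 0.05. Their median was 0.63, or 0.41 with the platelet score in the fit. The erythroid score varied widely within the groups, at 0.46 ± 1.14 over the cases and −0.33 ± 1.21 over the controls (mean ± SD). Summed levels of each list overlapped widely between the groups, for T cells 362 to 874 CPM in the cases and 438 to 1015 CPM in the controls, and for neutrophils 5870 to 14067 CPM and 3890 to 19618 CPM. The median log2 fold changes of the monocyte, cytotoxic lymphocyte, B cell, and eosinophil and basophil lists were 0.09, 0.08, 0.23 and −0.0033, and with the platelet score in the fit they were 0.14, 0.15, 0.18 and 0.12. Endothelial genes, which whole blood should hold few of, summed to between 4.10 and 15.0 CPM in the dogs, and 2 of the 5 in the table were tested, with a median of 0.036, or 0.14 with the platelet score in the fit. The part of these lists in the integrin values was not tested.

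With group and split means taken out, 4 of the 45 pairs of the 10 genes had r above 0.5 over the dogs. None had r under −0.5, and r within a group had no split mean taken out. The closest pair was ITGAM with ITGB2, the chains of Mac-1, at 0.83 (0.85 in the cases, 0.82 in the controls). ITGA5 went with ITGAM at 0.71, with ITGB7 at 0.62 and with ITGB2 at 0.59. ITGB1 and ITGA6 had r of 0.46. By contrast, ITGB1 followed its partners ITGA4 and ITGA5 little, with r of −0.29 and 0.16. ITGAX followed ITGAM with r of 0.85 in the cases and 0.09 in the controls, and ITGB2 with 0.82 and 0.11, a difference that was not tested.

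Since an α chain needs its β chain, the log2 ratio of their counts was taken within each dog, where library size cancels. The ITGA4 to ITGB1 ratio averaged −0.44 ± 0.41 over the cases (SD, n = 13) and 0.02 ± 0.47 over the controls (SD, n = 18). In all, 12 of 13 cases lay below the control median. The denominator, ITGB1, is the gene that followed the platelet score with r = 0.81, and with the score in the fit its case effect was 0.10 and that of ITGA4 0.0063 on the log2 scale. The score itself averaged 0.32 over the cases and −0.23 over the controls. No ratio was fitted with the score, so its part in the ratio was not tested. For ITGA5 to ITGB1 the values were 0.21 ± 0.40 and 0.58 ± 0.34, with 11 of 13 cases below. The ITGA6 to ITGB1 ratio was −0.40 ± 0.32 and −0.37 ± 0.38, with 5 of 13 cases below the control median and 8 above. Of the β2 pairs, ITGAM to ITGB2 was 0.48 ± 0.15 in the cases and 0.34 ± 0.26 in the controls, with 12 of 13 cases above the control median, and ITGAL to ITGB2 was −1.04 ± 0.21 and −1.08 ± 0.44. ITGAX to ITGB2 was −2.23 ± 0.17 and −2.41 ± 0.56. Over ITGB7, the other β chain of α4, ITGA4 did not show the same placing of the cases, at −0.53 ± 0.29 and −0.43 ± 0.35, with 5 of 13 cases below the control median and 8 above. ITGAE to ITGB7 was −5.73 ± 0.46 and −5.33 ± 0.61, with 11 of 13 cases below. The lowest ratios of ITGAM and ITGAL to ITGB2, of ITGA4 to ITGB1 and of ITGAE to ITGB7 were those of control_03. These ratios are descriptions and were given no test.

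**Figure D5:**
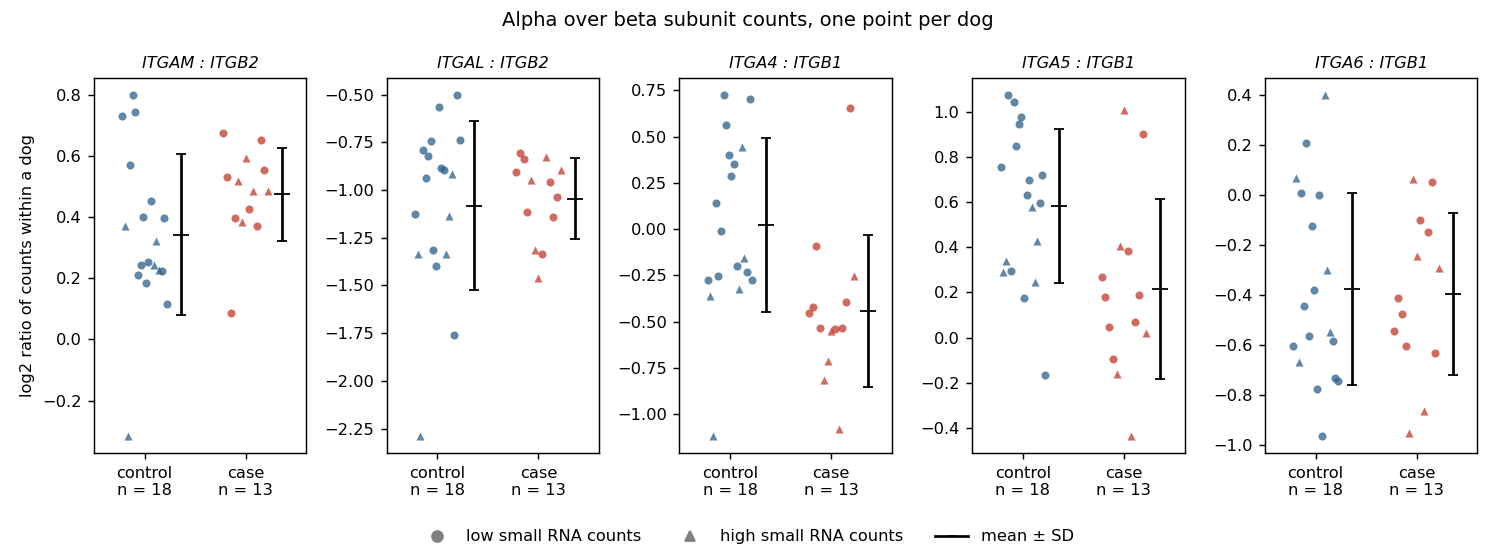
Log2 ratio of α chain to β chain counts within each dog (y axis) for 5 pairs in controls (blue) and cases (red), triangles for high and circles for low small RNA counts, with the mean ± SD. For ITGA4 over ITGB1, 12 of 13 cases lie below the control median, while ITGA6 over ITGB1 is centred near −0.40 and −0.37 in the groups.

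By a fixed rule, the 3 genes with a symbol whose pattern over the 31 dogs was most like each leukocyte integrin gene were named from 10806 genes compared. ITGB1 was most like ENDOD1 (r = 0.86), ITGA2B (0.84) and ITGB3 (0.83), the latter being the chains of the platelet fibrinogen receptor. ITGA6 was most like RGL1 (0.81), CDKN1A (0.80) and AMD1 (0.74). ITGAM had SORT1 (0.95), MYO1F (0.93) and PLD1 (0.93) and reached r above 0.8 with 229 genes, ITGA5 did so with 59 genes, led by ADAM8 (0.92), SH3BP1 (0.90) and VASP (0.89), and ITGB2 with 21, led by SERPINA1 (0.88), OSBPL2 (0.85) and EMB (0.85). For ITGA4 the closest were ATP8B2 (0.80), DNAJA3 (0.75) and ABHD12 (0.73), and for ITGAE they were CCR6 (0.79), a chemokine receptor of lymphocytes, KAT2A (0.74) and NUGGC (0.72). ITGAL, ITGAX and ITGB7 had no gene above 0.8, and their closest were ENTPD7 (0.77), PGS1 (0.74) and ETV6 (0.72), then TET3, ATG4B and GSE1 (each 0.75), then MAP3K14 (0.76), CRTC2 (0.75) and PIK3R5 (0.73).

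The rest of the integrin family gives the 10 genes a context. Of 15 other integrin subunits in the table, 12 were tested and none passed the threshold, 7 being higher and 5 lower in the cases with a median log2 fold change of 0.25, which was 0.12 with the platelet score in the fit. At an unadjusted P under 0.05, 6 were higher and 1 lower. ITGB3 was 0.75 higher on the log2 scale (SE 0.19, adjusted P = 0.107 in edgeR), ITGA2B 0.76 (SE 0.21, adjusted P = 0.162) and ITGA8 1.06 (SE 0.30, adjusted P = 0.179). ITGB3 and ITGA2B were called in DESeq2 with the split as a covariate, as ITGB1 was, and the study's list holds both. Their log2 fold changes were larger than that of ITGB1, a gap that was not tested.

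Ligands of leukocyte integrins are made mostly outside blood, and only 9 of the 17 in the table were tested. MADCAM1 was at 0 in every dog, and VCAM1 reached at most 5 counts in a dog. None passed the threshold, 3 were higher in the cases at an unadjusted P under 0.05, and the median was 0.34, or 0.13 with the platelet score in the fit. JAM3, a ligand of Mac-1, had a log2 fold change of 0.79 (SE 0.22, adjusted P = 0.166 in edgeR), complement C3, whose fragment binds Mac-1, had 1.36 (SE 0.57, adjusted P = 0.405), and F11R had 0.34 (SE 0.15, adjusted P = 0.458).

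The proteins that switch integrins on and tie them to actin were called in 0 of 17 genes, with 4 higher and 2 lower at an unadjusted P under 0.05 and a median of 0.05, which was −0.0012 with the platelet score in the fit. VCL, which joins talin to actin, had a log2 fold change of 0.53 (SE 0.14, adjusted P = 0.127), FERMT3 had 0.24 (SE 0.07, adjusted P = 0.204), with 13 of 13 cases above the control median, and ILK had 0.29 (SE 0.10, adjusted P = 0.283). VCL was the gene of this list called in DESeq2 with the split as a covariate, and it too stands on the study's list. Of 11 kinases and exchange factors that act behind integrins, 1 had an unadjusted P under 0.05 (PTK2, 0.29, SE 0.11), and FGR and PTK2B had log2 fold changes of 0.20 and −0.23. Among 8 inhibitors, FLNA, which competes with talin for the β tail, had 0.27 (SE 0.09, adjusted P = 0.268), SHARPIN had 0.12 and DOK1 had 0.08. Of the selectins and their partners, which slow cells before integrins hold them, SELP had 0.56 (SE 0.17, adjusted P = 0.226) and CD44 had 0.11.

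Sex, the other property the labels give, was compared with group in the fit. No leukocyte integrin gene differed between females and males past the threshold, which 17 genes passed (0.122%), and 1 of the 10 had an unadjusted P under 0.05, as did 680 of all genes. This was ITGB7, at 511 ± 101 CPM in female and 433 ± 40.3 CPM in male cases (SD, n = 5 and 8) and at 480 ± 52.9 CPM in female and 444 ± 82.9 CPM in male controls (SD, n = 8 and 10). Its log2 difference, females over males, was 0.16 (SE 0.08, adjusted P = 0.959 in edgeR). A difference of the case effect between the sexes passed the threshold in no gene (0 called, 0%, with 547 of all genes and 0 of the 10 at an unadjusted P under 0.05 in edgeR, and 0 of all genes called by DESeq2, 0%, with 624 at an unadjusted P under 0.05).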

How the data were processed

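Whole-blood RNA was prepared with a stranded total RNA kit that removes ribosomal RNA, although the labels give the molecule as polyA RNA. The authors checked reads with FastQC, trimmed them with Trimmomatic, aligned them with HISAT2 to the Dog10K_Boxer_Tasha genome and counted read pairs when both mates mapped, and they deposited these counts per gene without normalization. The counting program, its annotation and its strand setting are not given in the sources used here. The paper's methods fit batch as a covariate in DESeq2, but the labels name no batch, so the comparison had none. That batch was a pilot preparation of 5 cases and 5 controls, as many of each as had high small RNA counts, but the sources used here do not name its dogs, so whether they are the same dogs was not tested.

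Counts of all 31 dogs were analysed in R 4.3.3 with edgeR 4.0.16 (TMM, filterByExpr by group, glmQLFit and glmQLFTest) and Benjamini-Hochberg adjustment over all genes tested, with a threshold of 0.05, after the steps had been tested on simulated data. DESeq2 1.42.0 and limma-voom 3.58.1 were alternatives. Log2 CPM used a prior count of 2. Marker scores were mean log2 CPM, each gene centred. Correlations, permutation tests and figures used scipy 1.17.1, numpy 2.4.6, pandas 2.3.3 and matplotlib 3.10.9 under Python 3.11.15. The further alternatives were RLE and upper quartile normalization, other filters, sex, age, body condition score, the split, the platelet score or the shared dog number in the fit, dogs left out and the 20 genes with the highest totals removed.

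The genes described and the lists of pathway and marker genes were chosen with earlier results of these data known. Named were all 10 leukocyte integrin genes, up to 3 genes of each pathway and marker list with the smallest unadjusted P, genes of each list past the threshold and the 3 genes most like each leukocyte integrin gene. Some genes that this rule names are not reported here. HASPIN, CERKL, VCAM1, MADCAM1, CMTM5, CSF3R and CXCR2 were named after their values were seen. Of the lists, ITGB4, ICAM3, ICAM4, PARVB, LIMS1, PF4, LY6G6F, S100A9, CD14, CD247, NKG7, EPX and CLDN5 were not analysed here because no row carried the symbol. FYB had no row either, but its newer symbol FYB1, on the same list, did and was tested. Overlaps and neighbours came from the RefSeq annotation of the UU_Cfam_GSD_1.0 assembly, in which all 10 symbols matched and 5 of the 10 genes overlap another gene. It is another build than that of the counts, so no coordinates are given. Each dog is 1 sample, and no library appeared to be a copy of another, the highest correlation between dogs being 0.98.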

Additional observations from a re-analysis of the deposited data

Results flagged for a closer look

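Within each group and sex, the highest and lowest dog of each leukocyte integrin gene were compared with the rest on the log2 CPM scale by Dixon's test at its 95% critical value. Among the 8 female controls, control_10 had 319 CPM of ITGA5 and the next lowest had 462 CPM, a gap of 0.55 of the whole range in log2 CPM. It was the only one of the 40 sets of dogs marked on that scale, and chance marks about 1 in 20. On the CPM scale, looked at afterwards, its gap was 0.46 of the range and did not pass, while 2 others did, control_11 at 35.5 CPM of ITGAE among the female controls (gap 0.64) and case_06 at 656 CPM of ITGA5 among the 8 male cases (gap 0.56).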

How the results depend on the processing

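The number of genes called over the whole table moved most, from 5 to 84 with DESeq2, 106 with the side of the small RNA split in the DESeq2 model, 28 without case_01 and control_03, 3 with body condition score, 1 with at least 10 counts in every dog, and 0 with limma-voom, with the platelet score, with the replicate block, and on the high or the low side of the split alone. Leaving out 1 dog at a time gave 1 to 154 genes. Of the leukocyte integrin genes 1, ITGB1, was called with the split in DESeq2, and 0 to 1 with 1 dog left out. The causes were not tested. ITGB1, ITGA6, ITGAX, ITGB2 and ITGAE kept their direction in every alternative, but with the platelet score ITGAX went from 0.12 to 0.048 and ITGB2 from −0.10 to −0.17, and ITGB2 was −0.21 on the high side, −0.063 on the low side and −0.021 without case_01 and control_03. Genes with log2 fold changes near 0 changed sign. These were ITGB7 with upper quartile normalization (−0.0090), body condition score (−0.0068) and the replicate block (−0.056), and with 1 dog left out (−0.040 to 0.043). They were also ITGA5 with upper quartile normalization (−0.0042), body condition score (−0.0037), the split in edgeR (−0.0056) and DESeq2 (−0.0048), the platelet score (−0.070), the block (−0.058), the low side (−0.061) and 1 dog left out (−0.055 to 0.038). ITGAL changed sign with the platelet score (0.035), on the high side (0.16) and with 1 dog left out (−0.039 to 0.0072), ITGA4 with the platelet score (0.0063), and ITGAM with the block (−0.0077) and on the low side (−0.0055). On the high side ITGAM was at 0.16 and ITGA5 at 0.10.

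The replicate block used the number that a case and a control share in the labels. Dogs of the 13 shared numbers did not deviate together (r from −0.44 to 0.26, median −0.01, 3 of 13 over 0.1, and 1 case correlating best with its own number), so the numbers do not pair the dogs. With the block, 0 of the 10 genes were called, as without it. ITGAE, at 33 to 1270 counts per dog, is the gene most limited by depth.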
